A study of Mus musculus with 18 samples.

Results

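The genes described here are 10 members of the complement system and of the machinery that clears dying cells: C1QA, C1QB, C1QC, C5AR1, C3AR1, C3, CFP, GAS6, MERTK and AXL. They are 10 of the 25629 rows of each of the study's 2 expression tables, and each was found as a row with that name in both tables. The set was chosen from the cultured libraries, because the C1q genes there were higher after irradiation and lower with DL1. The cultured values below are therefore a description with no test of the 10 genes, and tests are given for the freshly sorted cells, which did not enter the choice, and for other genes of the same pathways.

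The study measured RNA of bone marrow LSK cells, which lack lineage markers, carry Sca1 and cKit and include the blood stem cells. All mice were C57Bl/6, and the data are 6 groups of 3 libraries, 18 in all. Mice of the irradiated groups were exposed to 2.5 Gy of a Cs-137 source at least 9 weeks earlier, and control mice were not irradiated. Each cultured library began with 200 LSK cells of 1 mouse, which were grown for 6 days with hFlt3L, mSCF, hIL-11 and hIL-6 and then sorted again as LSK cells. These libraries were irradiated with DL1, control with DL1, irradiated without DL1 and control without DL1. Each freshly sorted library, irradiated or control, was a pool of 3 mice. The labels do not spell out DL1, read here as the Notch ligand Delta-like 1, nor how the cells met it, and the ages and the sex of the mice are not given in the sources used here. For control samples, 1 label field speaks of irradiated cells, but title and condition read control, and these were used.

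C1q is the recognition unit of the classical complement pathway and is built from the A, B and C chains, each with its own gene. Macrophages and dendritic cells are its main source, and C1q binds antibody complexes and the surface of dying cells. C3 is the protein on which all complement pathways meet, properdin (CFP) stabilises the enzyme that cleaves C3 in the alternative pathway, and C3AR1 and C5AR1 are the receptors for the C3a and C5a fragments. GAS6 is a bridging ligand that links phosphatidylserine on dying cells to the receptor tyrosine kinases MERTK and AXL, and MERTK is a receptor of phagocytic macrophages.

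C1QB, C1QC and C1QA are neighbouring coding genes on mouse chromosome 4, between Ephb2 and Epha8. The promoter windows of C1QB and C1QC are shown because these neighbours have like profiles, and that of C3 because it held the most matches to the motifs searched. Each window runs from 250 bases before to 50 bases after the gene's start and comes from RefSeq on GRCm38.p6, at chr4:136886151-136886450 for C1QB, chr4:136892865-136893164 for C1QC and chr17:57228087-57228386 for C3, all on the minus strand and written 5′ to 3′. Capitals mark matches to C/EBP (TTNCNNAA), RBPJ (TGGGAA), PU.1 (GAGGAA) or MAF (TGCTGA) on either strand.
C1QB: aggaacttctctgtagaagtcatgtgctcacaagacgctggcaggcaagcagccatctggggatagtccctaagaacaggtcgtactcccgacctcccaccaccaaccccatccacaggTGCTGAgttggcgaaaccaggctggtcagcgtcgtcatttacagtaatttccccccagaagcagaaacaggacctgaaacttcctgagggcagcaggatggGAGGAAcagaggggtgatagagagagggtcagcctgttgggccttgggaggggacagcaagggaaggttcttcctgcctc
C1QC: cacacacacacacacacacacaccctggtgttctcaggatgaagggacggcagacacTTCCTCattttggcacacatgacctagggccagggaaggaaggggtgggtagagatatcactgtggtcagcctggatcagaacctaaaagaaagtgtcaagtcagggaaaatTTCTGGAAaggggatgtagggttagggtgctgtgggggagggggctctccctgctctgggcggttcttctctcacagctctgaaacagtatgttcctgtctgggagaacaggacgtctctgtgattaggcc
C3: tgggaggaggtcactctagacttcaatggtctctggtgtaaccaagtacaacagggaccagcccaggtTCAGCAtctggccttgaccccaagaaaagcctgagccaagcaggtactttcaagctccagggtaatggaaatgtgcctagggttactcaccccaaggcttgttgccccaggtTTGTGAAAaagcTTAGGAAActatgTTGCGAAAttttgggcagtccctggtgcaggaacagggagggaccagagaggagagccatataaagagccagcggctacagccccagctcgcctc
The C1QB window held a MAF match that began 131 bases before the start and a PU.1 match that began 30 bases before it. The C1QC window held a PU.1 match at 193 and a C/EBP match at 81 bases before the start. The C3 window held C/EBP matches that began 70, 58 and 45 bases before the start, the last of which reads as a match on both strands, and a MAF match at 182. None of these matches overlapped a match to another motif. Over the 9 genes with a window, C/EBP matched in 4, PU.1 in 4 and MAF in 4, while RBPJ, the DNA-binding partner of Notch, matched in 0. Of all 32851 windows of the same length, 40.7% held the C/EBP letters, 28.3% the PU.1 letters, 19.5% the MAF letters and 25.6% the RBPJ letters. A match is a run of letters and not a bound site.

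Depth of the libraries, read from the steps of the lowest values, lay between 0.756 and 1.09 of the first control culture, except irradiated replicate 2 with DL1 at 0.488, and between 0.645 and 1 of the first control in the freshly sorted libraries. Markers of the LSK sort and of stem cells summed to 585 to 681 FPKM (fragments per kilobase of transcript, scaled to the size of the library) in freshly sorted and 700 to 929 FPKM in cultured libraries. For all 10 genes, irradiated replicate 3 was the lowest of the irradiated cultures without DL1 and control replicate 2 the lowest of the control cultures without DL1. For 9 of the 10, irradiated replicate 1 was the highest of its group and control replicate 3 the highest of its group. Rows named as ribosomal or other small RNAs, called ribosomal RNA-like here, held 24.5 to 30.3% of the summed FPKM in freshly sorted libraries. In cultured libraries they held 2.98 to 4.18%.

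In cultures without DL1, the C1q chains stood about 4 times as high in cells of irradiated mice as in cells of control mice, and the same order held for all the other genes except AXL, whose groups overlapped. C1QB, the most abundant chain, measured 102, 92.9 and 65.3 FPKM in the irradiated cultures, against 21.1, 15.9 and 31.9 FPKM in the control cultures. C1QC measured 55.4, 51.1 and 33.2 FPKM in the irradiated cultures, against 10.1, 8.02 and 16.8 FPKM in the control cultures. C1QA measured 16.9, 20.8 and 11.3 FPKM in the irradiated cultures, against 4.17, 3.74 and 5.90 FPKM in the control cultures. The lowest irradiated culture stood above the highest control culture for each chain, by 2.05 times for C1QB, 1.98 times for C1QC and 1.92 times for C1QA. The ratio of group means was 3.77 for C1QB, 4.0 for C1QC and 3.55 for C1QA. The mean log2 fold change of the 3 chains, on log2(FPKM + 1), was 1.82 ± 0.26 (SE, n = 3 each), and it was 2.03 without irradiated replicate 3 and 1.63 without control replicate 2.

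The receptors for the complement fragments were arranged in the same way. C5AR1 measured 33.4, 29.0 and 19.1 FPKM in the irradiated cultures, against 9.53, 8.69 and 10.98 FPKM in the control cultures. C3AR1 measured 56.3, 38.6 and 32.3 FPKM in the irradiated cultures, against 18.9, 14.9 and 22.3 FPKM in the control cultures. Neither pair of groups overlapped, and the ratio of means was 2.79 for C5AR1 and 2.27 for C3AR1.

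The soluble complement proteins differed less. C3 measured 91.8, 80.8 and 61.9 FPKM in the irradiated cultures, against 46.6, 41.6 and 45.0 FPKM in the control cultures, with a ratio of means of 1.76. CFP, the most abundant of the 10 genes in every group, measured 197, 145 and 143 FPKM in the irradiated cultures, against 123, 109.7 and 141 FPKM in the control cultures. The CFP groups were separated by a narrow margin, since the lowest irradiated culture was 1.02 times the highest control culture.

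Among the genes of dying-cell uptake, the ligand had the widest gap of the 10. GAS6 measured 7.78, 6.67 and 5.12 FPKM in the irradiated cultures, against 1.33, 0.927 and 1.99 FPKM in the control cultures, a ratio of means of 4.60. MERTK measured 7.15, 5.58 and 4.03 FPKM in the irradiated cultures, against 2.02, 1.39 and 2.76 FPKM in the control cultures, a ratio of 2.72. AXL measured 2.30, 1.95 and 1.55 FPKM in the irradiated cultures, against 1.49, 1.41 and 1.63 FPKM in the control cultures, and the lowest irradiated culture lay inside the control range. The level of AXL was thus 0.322 to 0.384 of the level of MERTK in irradiated cultures and 0.591 to 1.02 of it in control cultures. In all, 9 of the 10 genes had irradiated cultures above every control culture. Over all 12011 genes tested in this comparison with limma, 13.8% were called higher and 15.9% lower. A limma call is a different measure from ranges that do not overlap. The share of all genes with such separated ranges is not given here. Nothing is read from the count of the 10, since this contrast chose them. With the libraries rescaled to a common median ratio, the share of called genes that were higher was 57.5%, against 46.5% as deposited.

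With DL1, the mean of each C1q chain was 0.117 to 0.282 of that without it in the same kind of culture, and the irradiated cultures still lay above the control cultures. C1QB measured 11.1, 9.66 and 9.69 FPKM in irradiated cultures with DL1, against 102, 92.9 and 65.3 FPKM in irradiated cultures without it. In control cultures, C1QB measured 3.28, 4.24 and 5.83 FPKM with DL1, against 21.1, 15.9 and 31.9 FPKM without it. The irradiated cultures with DL1 thus lay below the control cultures without DL1 for this chain. C1QC measured 6.55, 6.25 and 6.77 FPKM in irradiated cultures with DL1 and 1.67, 2.64 and 2.94 FPKM in control cultures with DL1. C1QA measured 2.77, 4.10 and 2.85 FPKM in irradiated cultures with DL1 and 1.06, 1.02 and 1.82 FPKM in control cultures with DL1. Both chains kept their irradiated and control groups apart with DL1, and C1QA alone of the chains overlapped between irradiated cultures with DL1 and control cultures without it. The mean log2 fold change of the 3 chains for DL1 was -2.53 ± 0.26 in irradiated and -1.75 ± 0.26 in control cultures (SE, n = 3 each). For irradiation in the presence of DL1 it was 1.03 ± 0.26, and 1.01 without irradiated replicate 2 with DL1, the library of lowest depth.

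C5AR1 showed the largest DL1 difference of the 2 receptors. It measured 1.74, 1.65 and 1.53 FPKM in irradiated cultures with DL1 and 0.843, 0.716 and 0.867 FPKM in control cultures with DL1, which were 0.0603 and 0.0830 of the means without DL1. C3AR1 measured 5.87, 6.18 and 6.66 FPKM in irradiated cultures with DL1 and 3.53, 4.61 and 2.58 FPKM in control cultures with DL1, which were 0.147 and 0.191 of the means without DL1. The ratio of C3AR1 to C5AR1 accordingly ran from 1.33 to 2.03 without DL1 and from 2.98 to 6.44 with DL1. C3 measured 33.3, 34.2 and 25.2 FPKM in irradiated cultures with DL1 and 13.8, 16.6 and 14.1 FPKM in control cultures with DL1. Its DL1 levels were 0.395 of the mean without DL1 in irradiated and 0.335 in control cultures, the smallest difference among the genes whose groups separated in both kinds of culture.

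CFP stood apart from the rest. It measured 155, 141 and 139 FPKM in irradiated cultures with DL1 and 120.3, 122 and 119.8 FPKM in control cultures with DL1. These ranges overlapped those without DL1 in both kinds of culture, with ratios of means of 0.896 in irradiated and 0.968 in control cultures. Of C3 and CFP, C3 alone was thus separated by DL1.

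GAS6 and MERTK came closest to absence with DL1, and AXL did not. GAS6 measured 0.207, 0.172 and 0.0533 FPKM in irradiated cultures with DL1 and 0.0288, 0.0516 and 0.0727 FPKM in control cultures with DL1. Its values resolve into whole reads, which numbered 14, 6 and 4 in irradiated cultures with DL1 and 2, 4 and 5 in control cultures with DL1, against 496, 368 and 308 in irradiated cultures and 95, 50 and 132 in control cultures without DL1. Summed over a group, the 24 reads of the irradiated cultures with DL1 have an exact 95% Poisson interval of 15.4 to 35.7 reads, and the 11 reads of the control cultures with DL1 one of 5.49 to 19.7 reads, which covers counting error only. The GAS6 means with DL1 were 0.0221 of those without it in irradiated and 0.0360 in control cultures. Because 1 is added to each FPKM before the logarithm, the log2 fold change of GAS6 for DL1 in irradiated cultures was -2.70, and it was -4.80 with 0.1 added instead. GAS6 overlaps Tmem255b, listed as FAM70B at 0 FPKM in all 18 libraries, and the library kit does not record the strand.

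MERTK measured 0.441, 0.355 and 0.280 FPKM in irradiated cultures with DL1 and 0.167, 0.243 and 0.232 FPKM in control cultures with DL1, which were 0.0642 and 0.104 of the means without DL1. AXL measured 1.52, 1.17 and 1.16 FPKM in irradiated cultures with DL1 and 1.48, 1.64 and 1.85 FPKM in control cultures with DL1. AXL was below its level without DL1 in the irradiated cultures, by a narrow margin, and its groups overlapped in the control cultures. By RNA, AXL stood at 3.29 to 4.13 times the level of MERTK in irradiated and 6.72 to 8.88 times in control cultures with DL1. Without DL1, AXL stood at 0.322 to 0.384 of the level of MERTK in irradiated cultures. In control cultures without DL1 the ratio ran from 0.591 to 1.02, so there the order was not the same in every library.

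Counted over the 10 genes, cultures with DL1 lay below every culture without it for 9 genes in irradiated cultures, all but CFP, and for 8 in control cultures, all but CFP and AXL. Of all genes tested, limma called 24.4% higher and 17.0% lower with DL1 in irradiated cultures and 14.0% higher and 12.3% lower in control cultures. With DL1 present, irradiated cultures lay above every control culture for 8 genes, all but GAS6 and AXL. In that comparison limma called 2.51% of all genes higher and 0.649% lower. These shares are of limma calls and not of separated ranges, so they are no direct measure for the counts. As these contrasts entered the choice of the 10, nothing is read from their counts. With median-ratio scaling the share of called genes that were higher with DL1 was 45.2% in irradiated and 42.2% in control cultures, against 59.0% and 53.1% as deposited. The change after irradiation with DL1 minus that without DL1 averaged -0.78 ± 0.36 over the C1q chains. It was -0.73 for C1QA, -0.84 for C1QB and -0.78 for C1QC with 1 added to each FPKM. With 0.1 added instead it was -0.51, -0.74 and -0.59, so its size depends on that constant. Of all genes, 0.0749% passed the test of that difference.

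**Figure D1:**
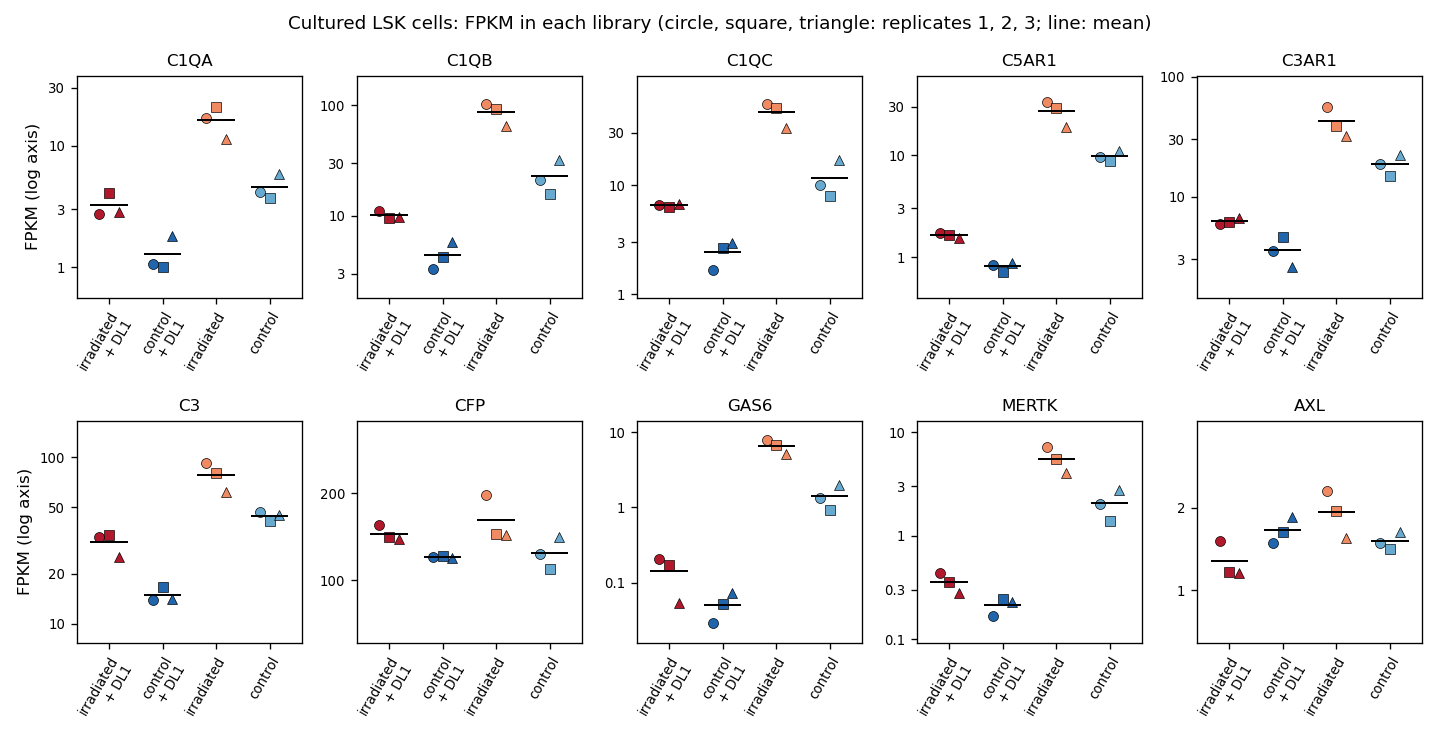
FPKM of each gene on a log axis in the 12 cultured libraries, in 4 groups of 3, with a line at each group mean and symbols for replicates 1, 2 and 3. In each kind of culture the DL1 points lie below those without DL1 for every gene but CFP in both and AXL in control cultures. For C1QB the irradiated cultures reach 65.3 to 102 FPKM without DL1 while the control cultures with DL1 stay at 3.28 to 5.83 FPKM.

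**Figure D2:**
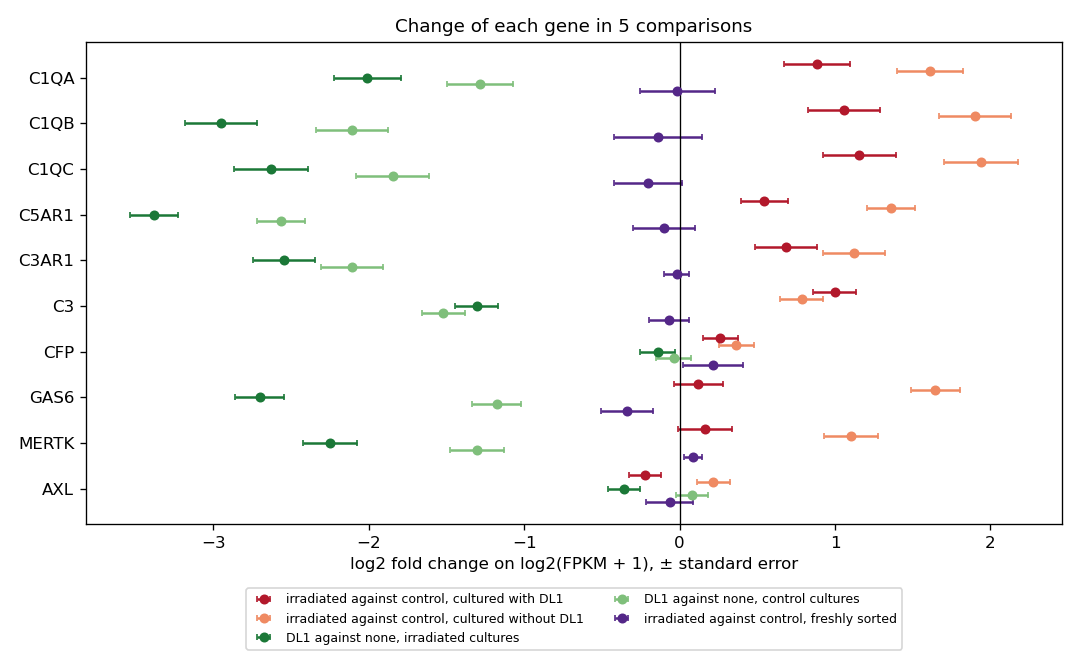
Log2 fold change on log2(FPKM + 1), with its standard error as the bar, of each gene in 5 comparisons: irradiated against control with DL1, without DL1 and freshly sorted, and DL1 against none in irradiated and control cultures. The freshly sorted values cluster at 0, between -0.34 for GAS6 and 0.22 for CFP, whereas DL1 values reach -3.38 for C5AR1.

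Freshly sorted LSK cells carried the same genes and their ranges in irradiated and control mice overlapped for all 10. The share of all genes whose ranges overlapped is not given here, so nothing is read from this count. C1QB measured 2.95, 6.48 and 4.70 FPKM in irradiated cells, against 3.17, 7.06 and 5.73 FPKM in control cells. C1QC measured 2.81, 5.03 and 4.22 FPKM in irradiated cells, against 5.15, 5.91 and 3.29 FPKM in control cells. C1QA measured 0.656, 0.677 and 1.92 FPKM in irradiated cells, against 1.25, 1.09 and 0.784 FPKM in control cells. No chain thus had every irradiated library on 1 side of the control libraries. The C1QA values rest on 12, 13 and 38 reads in irradiated and 25, 14 and 12 reads in control cells, so that single libraries weigh heavily. The mean log2 fold change of the chains was -0.12 ± 0.23 (SE, n = 3 each), with an exact two-sided permutation p of 0.7, where 0.1 is the smallest p that 3 against 3 libraries can give.

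Among the uptake genes, GAS6 measured 1.98, 2.16 and 2.74 FPKM in irradiated cells, against 4.16, 2.56 and 2.87 FPKM in control cells. This was the largest difference relative to its error, with a log2 fold change of -0.34 ± 0.17, a limma p adjusted over all genes of 0.790 and an exact permutation p of 0.2. AXL measured 2.51, 2.65 and 2.73 FPKM in irradiated cells, against 2.43, 3.68 and 2.39 FPKM in control cells. MERTK was scarcer and measured 0.242, 0.215 and 0.374 FPKM in irradiated cells, against 0.163, 0.230 and 0.212 FPKM in control cells. AXL thus stood at 7.30 to 12.3 times the level of MERTK in irradiated and 11.3 to 16.0 times in control cells, the reverse of the order in cultures of irradiated mice without DL1.

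C3AR1 was the scarcest of the 10, at 0.157, 0.226 and 0.124 FPKM in irradiated cells, against 0.0610, 0.189 and 0.310 FPKM in control cells. C5AR1 measured 2.39, 2.35 and 1.72 FPKM in irradiated cells, against 1.51, 2.84 and 2.94 FPKM in control cells. C3 ranged from 5.08 to 5.67 FPKM in irradiated and from 4.98 to 7.03 FPKM in control cells, and CFP from 9.62 to 16.7 FPKM in irradiated and from 10.4 to 13.7 FPKM in control cells. Of the 10 genes, 8 passed the filter of a mean FPKM of at least 1, and C3AR1 and MERTK did not. Their limma p-values adjusted over all genes ran from 0.790 for GAS6 to 0.998 for C1QA. Of these 8, limma called 0, beside 0.101% of the 12890 genes tested. An unadjusted limma p under 0.05 was found for 0 of the 8, beside 885 of the 12890. Of the 13 genes called among all, 69.2% were higher as deposited. When the libraries were rescaled to equal sums without ribosomal RNA-like rows, 52.4% of the 21 called were higher.

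**Figure D3:**
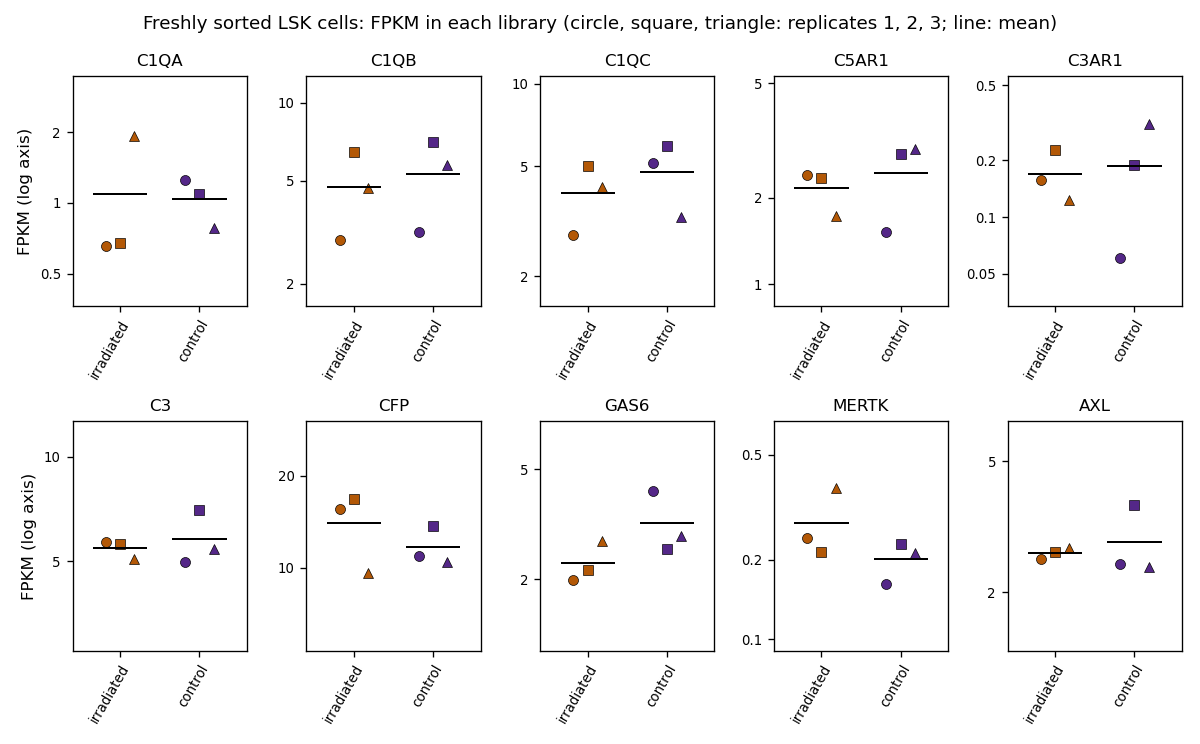
FPKM of each gene on a log axis in the 6 freshly sorted libraries, irradiated left of control, with a line at each group mean and symbols for replicates 1, 2 and 3. The ranges of the irradiated and control cells overlap for all 10 genes, a count without the share over all genes. CFP is the highest at 9.62 to 16.7 FPKM.

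The order of the levels within a group was set by CFP at the top. In irradiated cultures without DL1, CFP averaged 162 ± 30.6 FPKM (SD, n = 3), followed by C1QB at 86.6 ± 19.0 FPKM and C3 at 78.2 ± 15.2 FPKM, whose ranges overlapped. Next came C1QC at 46.6 ± 11.8, C3AR1 at 42.4 ± 12.4 and C5AR1 at 27.2 ± 7.34 FPKM, each overlapping its neighbour, then C1QA at 16.4 ± 4.77 FPKM. GAS6 at 6.52 ± 1.34 and MERTK at 5.59 ± 1.56 FPKM overlapped, and AXL was last at 1.93 ± 0.379 FPKM. C3 stood second, clear of C1QB, in the control cultures without DL1 and in both kinds of culture with DL1. With DL1, AXL stood above C5AR1 in control cultures, and GAS6 was last in both kinds of culture.

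The proportions of the C1q chains were not the same with and without DL1. The level of C1QB was 2.36 to 4.03 times that of C1QA in irradiated and 3.09 to 4.17 times in control cultures with DL1, against 4.46 to 6.01 times in irradiated and 4.25 to 5.41 times in control cultures without it. The 6 cultures with DL1 thus lay below the 6 without it for this ratio. C1QC was 0.480 to 0.699 of C1QB over the 12 cultured libraries, at 0.588 to 0.699 in irradiated and 0.504 to 0.623 in control cultures with DL1, and at 0.509 to 0.550 in irradiated and 0.480 to 0.527 in control cultures without it. These ranges were apart in irradiated cultures and overlapped in control cultures. In freshly sorted cells the ratio of C1QC to C1QB ran from 0.777 to 0.951 in irradiated and from 0.574 to 1.63 in control cells. The 2 tables were normalized separately, so levels set across them carry no test, while a ratio within a library does not depend on that scaling.

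Other genes of the same pathways were tested from lists that hold 44 complement and 47 efferocytosis genes (efferocytosis is the uptake of dying cells), none of them among the 10. Of these 91, 51 were expressed enough to be tested in culture, and without DL1, 22 rose and 2 fell in irradiated against control cultures, beside the 13.8% and 15.9% of all genes given above. The median log2 fold change over the 51 was 0.22, against -0.03 over all genes. Of the complement genes, 6 of 14 rose, among them FCNB, a ficolin of the lectin pathway, at 46.6 ± 16.1 FPKM in irradiated and 16.8 ± 0.599 FPKM in control cultures (SD, n = 3 each). Its log2 fold change was 1.35 ± 0.28 (SE) with a limma adjusted p of 0.00462. GPR77, the second C5a receptor, rose by 0.66 ± 0.15 and CLU, a fluid-phase inhibitor of the terminal pathway, by 0.58 ± 0.13, both on the log2 scale. GPR77 was low, at 2.74 FPKM in irradiated and 1.31 FPKM in control cultures without DL1. With DL1 it averaged 0.699 FPKM in irradiated and 0.442 FPKM in control cultures. It passed the filter of a mean of 1 FPKM only through the irradiated cultures without DL1, where it was highest. The filter at 5 FPKM leaves it out. Nothing is therefore read from its rise or from its fall with DL1, although the counts of called genes include it. C1QBP, a mitochondrial protein named for its binding of C1q, was the 1 complement gene that fell, by 0.38 on the log2 scale.

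Of the efferocytosis genes, 16 of 37 rose and 1 fell, beside 13.8% and 15.9% of all genes. THBS1, a secreted protein that can bridge dying cells to phagocytes, averaged 431 ± 84.7 FPKM in irradiated and 173 ± 19.4 FPKM in control cultures, with a log2 fold change of 1.3 ± 0.15 and a limma adjusted p of 0.000283. TREM2, a lipid-sensing receptor of phagocytes, averaged 52.4 ± 8.70 FPKM in irradiated and 21.7 ± 5.15 FPKM in control cultures (log2 fold change 1.25 ± 0.19). STAB1, a phosphatidylserine receptor, averaged 43.5 ± 10.9 FPKM in irradiated and 18.0 ± 3.40 FPKM in control cultures, a log2 fold change of 1.21 ± 0.18. ANXA1, a phosphatidylserine-binding protein that limits inflammation, rose by 0.60 ± 0.09. ELMO1, an adaptor for engulfment, fell by 0.21 on the log2 scale, and this call was lost under 6 of its 14 alternatives.

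With DL1 in irradiated cultures, 31 of the 51 pathway genes fell and 7 rose, beside 17.0% and 24.4% of all genes. In control cultures 23 fell and 6 rose, beside 12.3% and 14.0% of all genes. The median log2 fold change over the 51 was -0.45 in irradiated and -0.27 in control cultures, against 0.06 and 0.04 over all genes. TREM2 averaged 3.59 ± 0.302 FPKM with DL1 and 52.4 ± 8.70 FPKM without it in irradiated cultures, a log2 fold change of -3.53 ± 0.19 with a limma adjusted p of 1.87e-07. STAB1 changed by -3.37 ± 0.18 in irradiated and by -2.68 ± 0.18 in control cultures. P2RY6, a nucleotide receptor linked to engulfment in microglia, changed by -2.63 ± 0.16 in irradiated and by -2.22 ± 0.16 in control cultures. CD93, CLU and THBS1 also fell in both kinds of culture. GPR77 was called lower as well, with the filter limit given above.

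Among the pathway genes that rose with DL1, the largest change was that of ITGAX. ITGAX, the alpha chain of complement receptor 4 and a dendritic cell marker, averaged 35.1 ± 7.0 FPKM with DL1 and 2.91 ± 1.39 FPKM without it in irradiated cultures, a log2 fold change of 3.24 ± 0.22. In control cultures ITGAX averaged 29.7 ± 4.56 FPKM with DL1 and 3.29 ± 0.710 FPKM without it. ITGB3, a chain of the vitronectin receptor that binds MFGE8, rose by 0.70 ± 0.08 in irradiated and by 0.70 ± 0.08 in control cultures on the log2 scale. MFGE8, a bridge from phosphatidylserine to integrins, averaged 17.4 ± 0.493 FPKM with DL1 and 12.5 ± 1.43 FPKM without it in irradiated cultures, a log2 fold change of 0.45 ± 0.09. ABCA7, a lipid transporter, and PANX1, a membrane channel, rose as well in both kinds of culture. C1QBP rose by 0.26 ± 0.08 in irradiated cultures, a call lost under 4 of its 14 alternatives, and the transcription factor PPARD rose by 0.32 on the log2 scale in control cultures.

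In cultures with DL1, 5 of the 51 pathway genes were higher and 1 was lower in irradiated than in control cultures. Of all genes, 2.51% were called higher and 0.649% lower. ANXA1, THBS1, TREM2, FCNB and P2RY6 rose and S1PR1, a receptor for sphingosine 1-phosphate, fell by 0.54 on the log2 scale. The call was lost under 10 of 14 alternatives for P2RY6, 7 of 14 for FCNB, 6 of 14 for TREM2 and 5 of 13 for S1PR1. The count of 6 was small and moved with single libraries. It was 2 without control replicate 1, 3 without control replicate 2, 3 without control replicate 3, 2 without irradiated replicate 1 and 2 without irradiated replicate 2, all with DL1. THBS1 averaged 119 ± 14.4 FPKM in irradiated and 49.7 ± 8.69 FPKM in control cultures with DL1, and it and ANXA1 passed the test under all 14 alternatives run. The difference between the change after irradiation with and without DL1 passed for 0 of the 51 genes, beside 0.0749% of all genes. It had an unadjusted limma p under 0.05 for 8 of the 51, beside 1255 of all 12011 genes. It passed for 3 when irradiated replicate 3 without DL1 was left out. In freshly sorted cells 0 of 54 pathway genes passed between irradiated and control mice, beside 0.101% of all genes. There 4 of the 54 had an unadjusted limma p under 0.05, beside 885 of all 12890 genes. Nothing is read from these unadjusted counts.

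Transcription factors known to act on C1q or efferocytosis genes were followed in a list of 11, of which 10 were tested in culture and 5 (NR1H2, NR1H3, PPARD, PPARG and RXRA) stand in the efferocytosis list too. MAF, a factor of the macrophage program, changed by 1.19 ± 0.19 after irradiation without DL1 (limma adjusted p of 0.00144), by -2.28 ± 0.19 with DL1 in irradiated cultures and by -1.55 ± 0.19 with DL1 in control cultures. CEBPA, a factor of myeloid commitment, averaged 76.6 ± 3.36 FPKM in irradiated and 51.7 ± 3.15 FPKM in control cultures without DL1, a log2 fold change of 0.56 ± 0.08. SFPI1, which encodes PU.1, was not lower with DL1 and averaged 198 ± 2.18 FPKM with it and 173 ± 13.7 FPKM without it in irradiated cultures, a rise of 0.20 ± 0.06 on the log2 scale that was lost under 5 of its 14 alternatives, median-ratio scaling among them. In all, 5 of the 10 factors rose after irradiation without DL1, beside 13.8% of all genes. With DL1, 6 fell and 1 rose in irradiated cultures, beside 17.0% and 24.4% of all genes. In control cultures 7 fell and 1 rose with DL1, beside 12.3% and 14.0% of all genes.

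The genes whose profile over the 12 cultured libraries was most like that of the C1q chains included PLA2G7, ARG1, MS4A7, F7, FCRLS, GM5150 and MAF. Likeness was the root mean square difference between centred log2(FPKM + 1) values of a gene and the mean of the chains, and it was 0.27 log2 units for PLA2G7 and 0.35 for MAF. By the same measure C5AR1 stood at 0.51, C3AR1 at 0.39, GAS6 at 0.37, MERTK at 0.46, C3 at 0.56, CFP at 1.2 and AXL at 1.25. PLA2G7, a secreted phospholipase that degrades platelet-activating factor, averaged 126 FPKM in irradiated and 50.2 FPKM in control cultures without DL1, and 29.1 FPKM in irradiated and 15.6 FPKM in control cultures with DL1. MS4A7, a membrane protein of macrophages, averaged 69.4 FPKM in irradiated and 27.5 FPKM in control cultures without DL1, and 9.52 FPKM in irradiated and 4.70 FPKM in control cultures with DL1. The libraries share depth and the scale of the table, and the measure is a description.

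In culture, markers of macrophages and of neutrophils moved along with these genes, while those of the other cell types listed below did not all do so. The summed level of 15 macrophage and monocyte markers was 4120 to 5992 FPKM in irradiated and 2300 to 3178 FPKM in control cultures without DL1, and 1141 to 1484 FPKM in irradiated and 688 to 924 FPKM in control cultures with DL1. In freshly sorted libraries it was 395 to 697 FPKM in irradiated and 374 to 680 FPKM in control cells. Most of this sum was LYZ2, a lysozyme of macrophages and neutrophils, at 3752 ± 744 FPKM in irradiated and 1982 ± 359 FPKM in control cultures without DL1, and at 768 ± 126 FPKM in irradiated and 412 ± 87.6 FPKM in control cultures with DL1. In freshly sorted cells LYZ2 averaged 416 ± 104 FPKM in irradiated and 413 ± 111 FPKM in control cells. MRC1, the mannose receptor of macrophages, differed more than the sum, at 25.1 ± 10.03 FPKM in irradiated and 6.28 ± 2.36 FPKM in control cultures without DL1, and at 0.696 ± 0.178 FPKM in irradiated and 0.234 ± 0.0849 FPKM in control cultures with DL1. Of the 12 of these markers tested in culture, 10 rose after irradiation without DL1, beside 13.8% of all genes. With DL1, 12 fell in irradiated and 11 in control cultures, beside 17.0% and 12.3% of all genes. MARCO was at 0 throughout 4 of the 6 groups, and TREM2, CD14 and CX3CR1 stand in the efferocytosis list as well. The share of the C1q chains against this sum is therefore mainly a share against LYZ2. The summed C1q chains were 2.67 to 3.39% of the macrophage sum in irradiated and 1.2 to 1.72% in control cultures without DL1. With DL1 they were 1.35 to 1.69% in irradiated and 0.805 to 1.54% in control cultures, so that the 2 groups overlapped. They were 1.63 to 2.21% in irradiated and 2.05 to 2.56% in control freshly sorted cells. In such bulk libraries, fewer cells of a type and less RNA per cell cannot be told apart, and the part of the macrophage content in the values of the 10 genes was not tested.

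Neutrophil markers summed to 2002 to 3244 FPKM in irradiated and 1199 to 1299 FPKM in control cultures without DL1, and to 1237 to 1781 FPKM in irradiated and 700.2 to 790.8 FPKM in control cultures with DL1. Of the 7 tested, 5 rose after irradiation without DL1, beside 13.8% of all genes. With DL1 in irradiated cultures 7 fell, beside 17.0% of all genes. Dendritic cell markers ran the other way with DL1, at 51.7 to 64.1 FPKM with DL1 and 7.51 to 14.0 FPKM without it in irradiated cultures, and at 45.2 to 58.1 FPKM with DL1 and 9.25 to 17.1 FPKM without it in control cultures. ITGAX is one of these markers and carried most of the sum, at 35.1 of a mean sum of 56.6 FPKM in irradiated cultures with DL1. Of the 8 markers, 3 were expressed enough to be tested, and these 3 rose with DL1 in both kinds of culture. Of all genes, 24.4% were called higher with DL1 in irradiated and 14.0% in control cultures. CLEC9A was near 0, at 0.0204 FPKM with DL1 and 0.0532 FPKM without it in irradiated cultures. Mast cell and basophil markers summed to 151 to 174 FPKM in irradiated and 95.1 to 110.3 FPKM in control cultures without DL1, and to 148 to 167 FPKM in irradiated and 107 to 187 FPKM in control cultures with DL1, so that they were not lower with DL1 in control cultures. Erythroid markers summed to 9.53 to 23.3 FPKM in irradiated and 29.4 to 35.3 FPKM in control cultures without DL1, and to 3.33 to 9.21 FPKM in irradiated and 7.46 to 14.95 FPKM in control cultures with DL1. The erythroid sum was thus lower with DL1, as the C1q chains were, and lower in irradiated cultures without DL1, where the chains were higher. B lymphocyte markers stayed at or under 0.30 FPKM in every cultured library, and their part, like that of the other lists, was not tested.

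**Figure D4:**
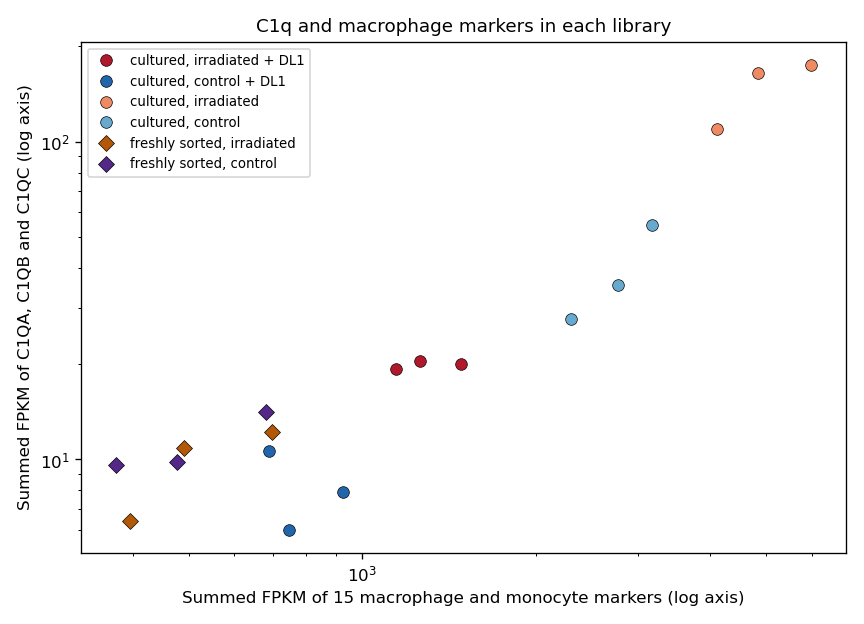
Summed FPKM of C1QA, C1QB and C1QC against summed FPKM of 15 macrophage and monocyte markers in each of the 18 libraries, both axes logarithmic, with circles for cultured and diamonds for freshly sorted cells. The irradiated cultures without DL1 lie at the top right, at 109.9 to 174 FPKM of C1q, and the control cultures with DL1 at 6.02 to 10.6 FPKM. The freshly sorted libraries carry 6.42 to 14.1 FPKM of C1q at macrophage sums of 374 to 697 FPKM. Cultured and freshly sorted libraries were normalized separately, so levels set across them carry no test.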

How the data were processed

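Both tables, as the authors deposited them, hold FPKM per gene and library (fragments scaled by the length of the transcript and the size of the library), and 1 table has the 12 cultured and the other the 6 freshly sorted libraries. The submitters' processing notes list TopHat 1.4.1, Cufflinks 1.3.0, Cuffdiff and hg19, a human build, for these mouse samples. Kits were TruSeq RNA, per the labels' protocols. Every column had a sample, and 0 were left out.

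Tests used limma 3.58.1 (R 4.3.3) on log2(FPKM + 1), with trended variances, over genes whose mean was 1 FPKM or more. The 4 cultured groups were fitted together, p-values were adjusted by Benjamini-Hochberg over all genes at 0.05, and the tables were never compared by a test. Scripts were tested on simulated data. The members and lists were chosen with earlier results of these data known. Named were all members, up to 4 list genes per comparison and direction with the smallest p past the threshold, and the 8 genes most like the C1q mean. Some items that this rule names are not reported here.

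Each culture came from 1 mouse and each freshly sorted library from a pool of 3. Whether equal numbers mark a shared mouse is not given. Deviations of equal-numbered libraries correlated by over 0.1 in every pair for DL1 against none in irradiated cultures (0.24, 0.14 and 0.35). The reported values nevertheless come from fits without pairing in all comparisons, and a replicate block was run only as an alternative, for every comparison. Reads were recovered from the FPKM steps within 0.05 reads for 6 members in the cultured and 7 in the freshly sorted libraries. The fits were repeated with 0.1 or 5 added, without the filter and with a filter at 5 FPKM. They were also repeated after median-ratio scaling, and after scaling to equal sums with ribosomal RNA-like rows left out. Further repeats used a replicate block, the compared groups alone, and all libraries but 1 in turn.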

Additional observations from a re-analysis of the deposited data

How the results depend on the processing

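The mean log2 fold change of C1QA, C1QB and C1QC kept its sign in the cultured comparisons under every alternative run. With a pseudocount of 5 it was 1.5 for irradiation without DL1, 0.57 for irradiation with DL1, -1.09 for DL1 in control and -2.02 for DL1 in irradiated cultures, and with 0.1 it was -2.09 for DL1 in control cultures, since the constant compresses low values. CFP for DL1 in control cultures ran from -0.13 to 0.053 when single libraries were left out. In freshly sorted cells, where 0 members passed, C1QA was 0.0046 with a pseudocount of 5, and leaving out single libraries gave -0.29 to 0.12 for C1QA, -0.41 to 0.10 for C1QB, -0.16 to 0.058 for C3, -0.14 to 0.089 for AXL and -0.31 to 0.014 for C5AR1.

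Leaving out single libraries gave 5 to 14 called genes in freshly sorted cells, with 5 without irradiated replicate 1. For irradiation without DL1 it gave 1884 to 4703, with 1884 without control replicate 2 and 2192 without irradiated replicate 1. For irradiation with DL1 it gave 104 to 285, with 115, 253 and 130 without control replicates 1, 2 and 3 and 130 and 104 without irradiated replicates 1 and 2, all with DL1, and its pathway count ran from 2 to 5. For the difference between these changes it gave 0 to 193, with 193 without irradiated replicate 3 and 5 or fewer without any other library that moved it, and a pathway count of 0 to 3. Fitting only the groups compared gave 1623 called genes for irradiation without DL1, and 1072 with 17 pathway genes for irradiation with DL1. No filter gave 4 genes in freshly sorted cells, 222 with 2 pathway genes for irradiation with DL1, and 3 for the difference. Equal sums without ribosomal RNA-like rows gave 21 in freshly sorted cells. A pseudocount of 5 gave 3 pathway genes for irradiation with DL1 and 18 genes for the difference, and a mean of 5 FPKM gave 5 for it. The causes were not tested.

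The replicate block gave 3 genes for the difference, against 9 without it. For DL1 in irradiated cultures, where equal-numbered libraries correlated, the block gave 4939 called genes and 37 pathway genes, against 4973 and 38 as reported without it. Of the named list genes, P2RY6 lost its call for irradiation with DL1 under the block. GAS6 and MERTK with DL1, and C3AR1 and MERTK in freshly sorted cells, lie near the lower end of what this depth measures.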
